A study of Mus musculus with 10 samples.

Results

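The genes described here are 32 genes of mitosis and cytokinesis, chosen by symbol for their known roles in cell division from the 55858 genes of the expression table. Of them, 9 act in cytokinesis or at the midbody (Anln, Ect2, Racgap1, Prc1, Kif20a, Kif23, Kif14, Cit and Cep55). The other 23 are grouped under other roles in division, although some of them, such as Plk1, also serve cytokinesis. A total of 31 of the 32, among 13282 genes in all, had at least 1 TPM (transcripts per 1000000, a share of all transcripts corrected for gene length) in at least 5 of the 10 libraries and were tested. Kif14 was below that level and is described by its values alone.

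RNA was taken from whole hearts of 10 mice at postnatal day 10. In the 5 cKO animals, of genotype MCM; Chmp4bF/F, tamoxifen at 0.1 mg/g had been injected under the skin on 2 successive days from postnatal day 0 in order to delete Chmp4b, which encodes a subunit of the membrane-cutting complex ESCRT-III. The 5 control animals had the same genotype, MCM; Chmp4bF/F, and were given corn oil. The labels do not spell out MCM or name the promoter that drives it, and the controls received no tamoxifen, so loss of Chmp4b and exposure to tamoxifen cannot be told apart. Replicates carry the numbers of the sample titles, which are 1, 3, 5, 6 and 7 in cKO and 4, 6, 8, 9 and 13 in control.

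As background, cyclin-dependent kinase 1 with its cyclins drives entry into mitosis, the kinetochore and spindle genes separate the chromosomes, and the anaphase-promoting complex ends mitosis by destroying cyclin B. Centralspindlin, a RhoA-driven actomyosin ring and the midbody then divide the cell, and in human cells the midbody protein CEP55 recruits the ESCRT machinery that cuts the last membrane bridge. Heart muscle cells of the mouse largely leave the cell cycle soon after birth, and many of them complete a final mitosis without cytokinesis, while the other cells of the heart go on dividing.

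Most of these genes share a promoter feature that their choice did not use. Transcription of many G2 and M phase genes is known to run through the cell cycle genes homology region (CHR), bound by the MuvB complex, and through CCAAT boxes, bound by NF-Y. RefSeq promoter windows on GRCm38.p6 (250 bases before to 50 after each start) matched 27 of the 32 genes, with 30 windows in all. TTTGAA or TTTAAA, read on either strand, lay within 50 bases of the start in 25 of the 30 windows (83.3%), against 8.28% of 32851 promoters of the table. CCAAT, read on either strand and allowed to overlap the other motif, lay there in 14 of the 30 windows (46.7%), against 13.6% of all promoters. Both stood there together in 13 of the 30 (43.3%), against 1.28% of all promoters. Ect2, Prc1 and Cep55 each gave overlapping windows, so their matches were counted more than once. By gene, TTTGAA or TTTAAA lay near the start in 22 of 27, CCAAT in 13 of 27 and both in 12 of 27. Over the whole window, 27 of 30 (90.0%) held TTTGAA or TTTAAA, against 27.6% of all promoters. No TTTGAA or TTTAAA near the start was found for Mki67, Bub1, Birc5, Nusap1 and Cit, although Bub1 held a CCAAT there. The 150 bases before the start are shown for 5 genes with a match, taken from several roles, and for Cit, which had none. Capitals mark matches to the CHR letters or to the CCAAT box on either strand, and each sequence reads 5′ to 3′ along the gene's own strand.
Cdk1 (chr10:69352913-69353062, minus): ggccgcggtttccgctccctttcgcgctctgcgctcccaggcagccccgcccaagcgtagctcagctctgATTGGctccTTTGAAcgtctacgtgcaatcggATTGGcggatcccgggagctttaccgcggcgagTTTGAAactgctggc
Cdc20 (chr4:118437344-118437493, minus): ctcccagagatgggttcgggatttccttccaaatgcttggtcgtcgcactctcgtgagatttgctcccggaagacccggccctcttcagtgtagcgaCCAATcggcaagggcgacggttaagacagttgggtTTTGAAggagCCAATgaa
Top2a (chr11:99024190-99024339, minus): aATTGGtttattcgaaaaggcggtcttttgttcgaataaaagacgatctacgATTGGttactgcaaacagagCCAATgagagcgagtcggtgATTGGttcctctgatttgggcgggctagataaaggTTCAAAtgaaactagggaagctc
Kif11 (chr19:37376232-37376381, plus): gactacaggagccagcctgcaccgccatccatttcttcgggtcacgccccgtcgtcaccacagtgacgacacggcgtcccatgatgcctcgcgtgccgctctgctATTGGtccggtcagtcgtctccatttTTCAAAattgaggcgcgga
Cep55 (chr19:38054891-38055040, plus): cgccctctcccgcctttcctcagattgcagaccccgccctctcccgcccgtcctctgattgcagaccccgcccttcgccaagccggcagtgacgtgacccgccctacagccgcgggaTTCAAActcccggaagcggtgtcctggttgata
Cit (chr5:115845506-115845655, plus): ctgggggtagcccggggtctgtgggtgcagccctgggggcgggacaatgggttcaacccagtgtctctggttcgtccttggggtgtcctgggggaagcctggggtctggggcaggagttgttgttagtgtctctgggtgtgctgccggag
Cdk1, Cdc20, Top2a and Kif11 held both kinds of motif in these stretches, Cep55 held the CHR letters alone, and Cit held neither. The Cit stretch lies before a RefSeq start that is inside the gene as placed below (chr5:115845278-116008947). It therefore does not show the bases before that first position. A match is a description of these letters and not of binding, which was not measured.

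The scale of the table bears on every value below. A size factor, the typical level of a gene in a library relative to the others, was 1.30 ± 0.0722 in cKO and 0.776 ± 0.0690 in control libraries (SD, n = 5 each, no overlap, two-sided exact permutation p = 0.00794, the smallest that 252 splits allow). Results are therefore given as deposited in TPM and also relative to the median gene, after division by that factor (scaled TPM). As deposited, limma called 80.0% of all tested genes at an adjusted p under 0.05, and the median log2 difference of all genes, cKO minus control, was 0.63. After scaling it called 41.6%, around a median of 0.01. Chmp4b had 36.3 to 40.0 TPM in cKO and 36.6 to 58.6 TPM in control, and 27.7 to 31.3 scaled TPM in cKO and 51.4 to 69.7 scaled TPM in control. Xist, a transcript of females, was at 47.6 to 65.9 TPM in cKO replicates 1, 5 and 7, and at most 0.120 TPM in the other 2 cKO and all 5 control libraries, so sex differed between the groups. The 8 heart muscle markers summed to 31240 to 34570 TPM in cKO and 31040 to 38220 TPM in control, all 8 being lower in cKO relative to the median gene. Markers of macrophages (8 of 8 higher on that scale, summing to 361 to 549 TPM in cKO and 60.8 to 83.3 TPM in control) and fibroblasts (7 of 8 higher, 1 lower, 1923 to 2491 TPM in cKO and 760 to 1175 TPM in control) moved with the groups, and the 8 endothelial markers were all lower relative to the median gene. Their part in the results was not tested, and in whole hearts a change in the number of dividing cells and a change in RNA per dividing cell cannot be told apart.

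As deposited, mitosis and cytokinesis genes were higher in cKO hearts, at about the rate of genes in general. Limma called 24 of the 31 tested members higher, against 76.5% of all tested genes, with adjusted p from 0.00136 to 0.0373. It called 0 lower, against 3.46% of all genes. At an unadjusted p under 0.05, 0 members were lower, against 482 of the 13282 tested genes. The median log2 difference of the members was 0.51, below the 0.63 of all genes, and 30 of 31 differences were positive. The 7 genes not called were Ube2c, Bub1, Cenpa, Cenpe, Cenpf, Cit and Cep55. In none of the 32 did the 5 cKO libraries all lie above, or all below, the 5 control libraries, whereas the groups were apart in 64.4% of tested genes.

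**Figure D1:**
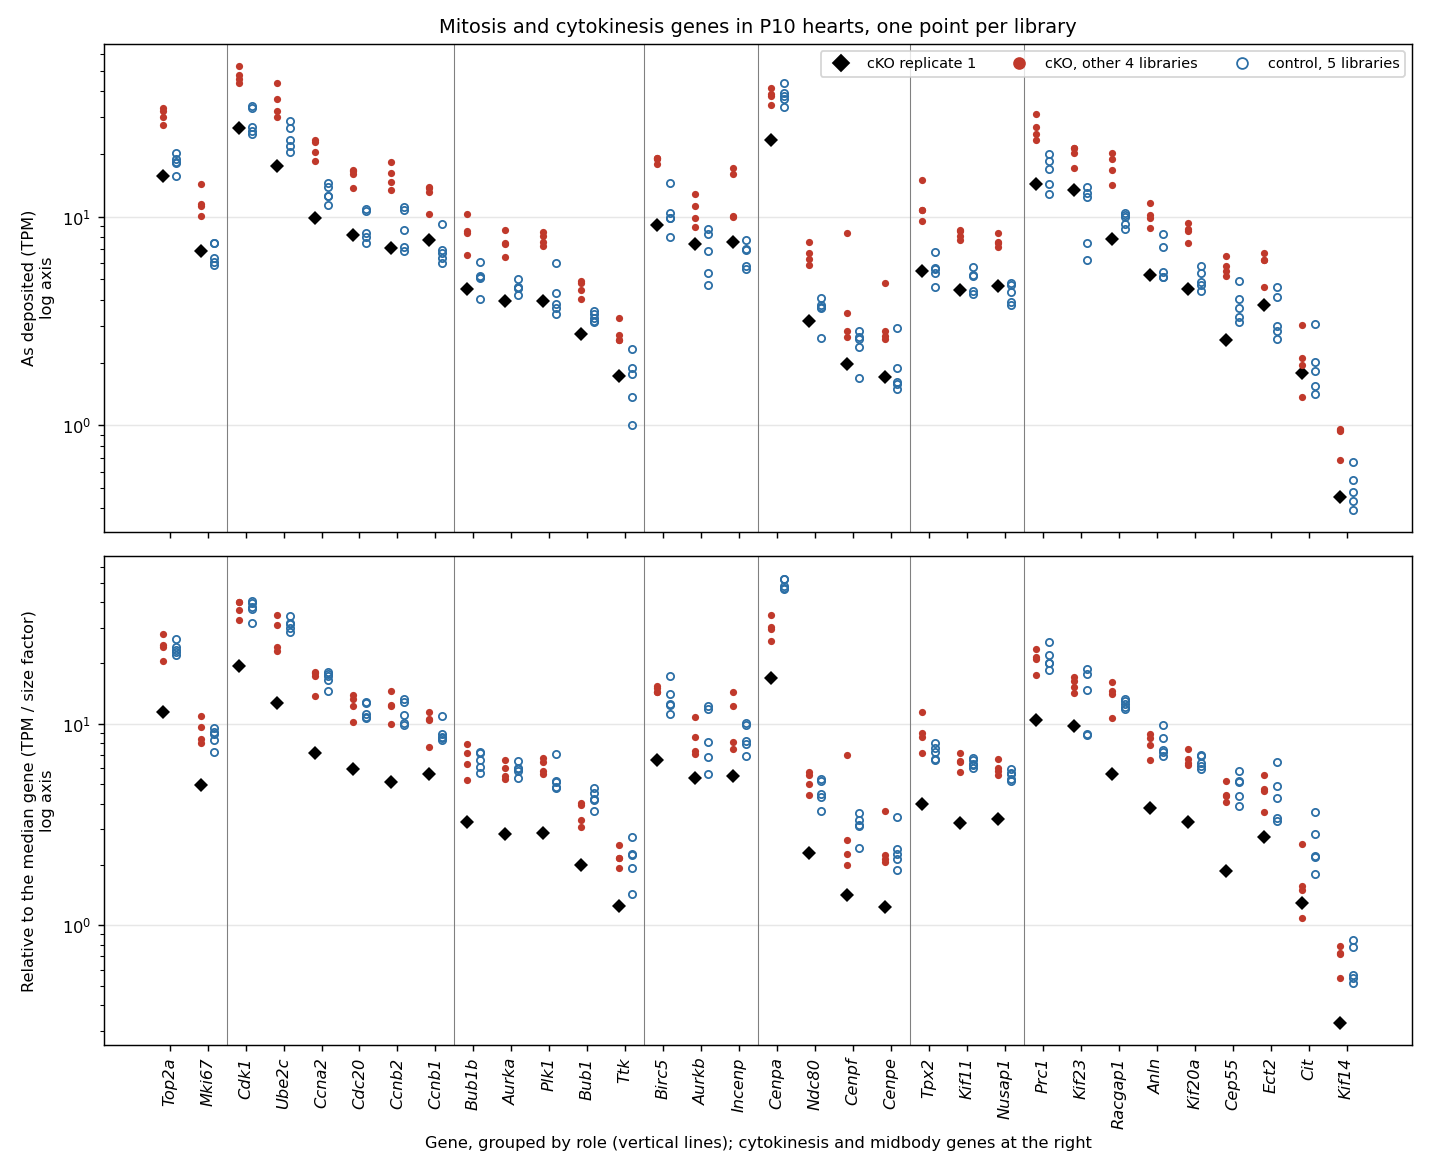
Level of each of the 32 genes in each library on log axes, in TPM as deposited (top) and relative to the median gene (bottom), with 5 cKO libraries (filled, replicate 1 as a black diamond) left of 5 control libraries (open). In the top panel most cKO points other than replicate 1 lie above the control points, in the bottom panel the groups mostly overlap, and Cenpa is the gene whose groups stand apart there.

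On the scale relative to the median gene, limma called 0 members higher and 1 lower (Cenpa), against 20.8% of all tested genes called higher and 20.8% called lower. At an unadjusted p under 0.05, 0 members were higher and 3 lower (Cenpa, Bub1 and Cit). Of the 13282 tested genes, 3292 were higher and 3255 lower at that level. The median of the 31 log2 differences was -0.13 and 28 were negative. Under TPM over non-mitochondrial genes, where all genes had a median of 0.28, the members' median was positive at 0.12 and Cenpa was again the 1 member called. The 95% intervals of the 30 uncalled members reached from -0.83 to 0.60 over all of them, and a difference inside a member's own interval is not excluded for it. Groups did not overlap for 1 of the 32 genes, against 31.3% of tested genes.

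**Figure D2:**
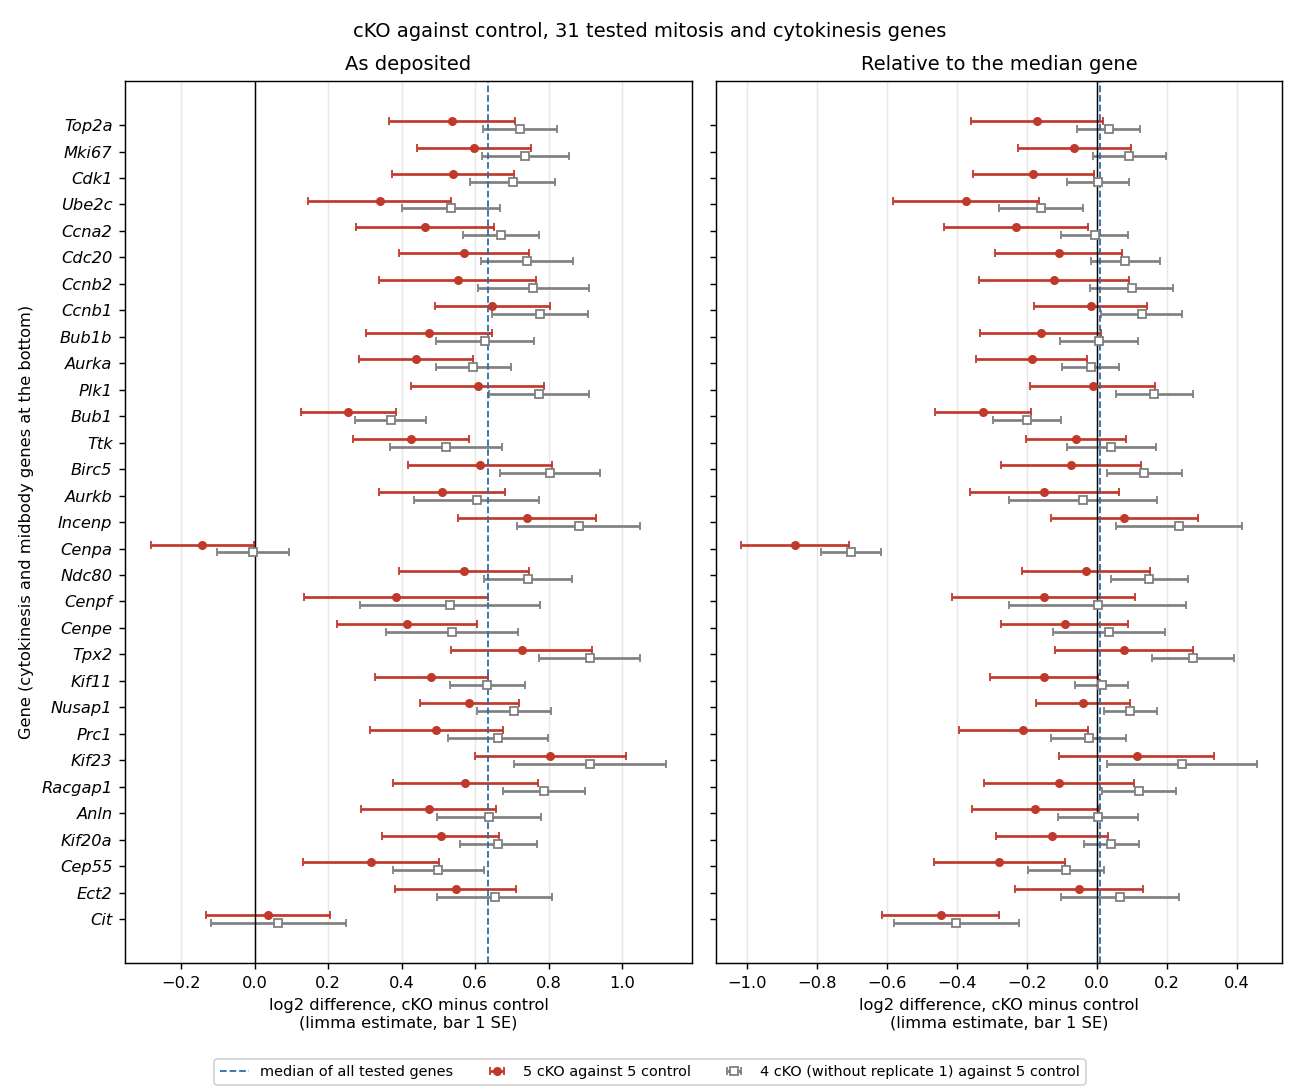
Log2 difference of each tested member, cKO minus control, as limma estimate with 1 SE, as deposited (left) and relative to the median gene (right), for all 5 cKO libraries (red) and for the 4 without replicate 1 (grey). The dashed line is the median of all tested genes (0.63 and 0.01); the members' median is 0.51 on the left and -0.13 on the right, so their direction turns with the scale, and Cenpa lies furthest to the left in both.

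The counts by role that follow are to be read against all tested genes, of which 76.5% were called higher as deposited. Relative to the median gene, 20.8% were called higher and 20.8% lower. Both genes of chromosome structure were called higher as deposited and neither relative to the median gene. Top2a, the topoisomerase that untangles sister chromatids, had 15.7, 32.2, 27.5, 33.3 and 29.9 TPM in cKO replicates 1, 3, 5, 6 and 7, against 15.6, 19.0, 20.2, 18.2 and 18.4 TPM in control replicates 4, 6, 8, 9 and 13. Mki67, whose protein coats mitotic chromosomes, had 6.82, 14.4, 11.2, 11.5 and 10.1 TPM in cKO, against 5.90, 6.06, 7.49, 7.51 and 6.34 TPM in control, in the same order of replicates. For both genes 4 cKO libraries lay above every control library and cKO replicate 1 lay inside the control range. Limma gave log2 differences of 0.54 ± 0.17 and 0.60 ± 0.16 (SE) as deposited (adjusted p = 0.0111 for Top2a and 0.00329 for Mki67) and -0.17 and -0.06 relative to the median gene (adjusted p = 0.507 and 0.783).

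Among the 6 genes of cyclins, Cdk1 and the anaphase-promoting complex, 5 were higher as deposited and none of the 6 was called relative to the median gene, where all 6 differences were negative (-0.37 to -0.02). Cdk1, the kinase of mitotic entry and with Cenpa one of the 2 members highest in mean TPM, lies at chr10:69335146-69352938 on the minus strand of GRCm38, the build of all gene positions here. It had 26.6, 52.6, 43.9, 47.7 and 45.6 TPM in cKO replicates 1, 3, 5, 6 and 7, against 26.9, 33.2, 34.1, 25.0 and 25.8 TPM in control replicates 4, 6, 8, 9 and 13. Replicate 1 of cKO lay inside the control range and the other 4 above it, for a log2 difference of 0.54 ± 0.17 (SE, limma adjusted p = 0.00888). Cdk1 averaged above Cenpa in cKO (43.3 and 35.1 TPM) and below it in control (29.0 and 38.2 TPM). Scaled, Cdk1 had 19.3, 40.2, 32.8, 39.9 and 36.4 in cKO and 37.8, 39.5, 40.4, 31.7 and 37.0 in control, a difference of -0.18 ± 0.17 (SE, limma adjusted p = 0.436). Ccnb1 and Ccnb2, the B-type cyclins, Ccna2, cyclin A2, and Cdc20, which activates the anaphase-promoting complex, had deposited differences of 0.65, 0.55, 0.46 and 0.57. Ube2c, the ubiquitin-conjugating enzyme of that complex, was not called, at 17.5 to 43.5 TPM in cKO and 20.4 to 28.9 TPM in control. Exons of Ube2c share 22.8% of their bases with the muscle troponin gene Tnnc2 and those of Ccna2 share 12.5% with Exosc9, each on the opposite strand, and without the strand setting such reads cannot be told apart.

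Of the 5 mitotic kinases and checkpoint genes, limma called 4 higher as deposited: Plk1, a kinase of spindle poles and cytokinesis (0.61 ± 0.18), Aurka, a spindle pole kinase (0.44 ± 0.16), and the checkpoint genes Bub1b (0.47 ± 0.17) and Ttk (0.43 ± 0.16), with errors as SE. Bub1, a kinetochore checkpoint kinase, had 2.74, 4.05, 4.47, 4.81 and 4.94 TPM in cKO, against 3.42, 3.55, 3.12, 3.28 and 3.16 TPM in control. Its difference was 0.26 as deposited and -0.33 relative to the median gene, and neither passed the test (limma adjusted p = 0.0832 and 0.0785). None of the 5 was called relative to the median gene.

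The chromosomal passenger complex corrects faulty attachments and later marks the division plane. All 3 of its genes were higher as deposited, against 76.5% of all tested genes. Incenp was higher by 0.74, Birc5 (survivin) by 0.61 and Aurkb by 0.51 on the log2 scale. Incenp, the scaffold of the complex, had 7.60, 16.1, 10.01, 17.1 and 10.1 TPM in cKO replicates 1, 3, 5, 6 and 7, against 5.62 to 7.75 TPM in control. Its highest values were in the cKO libraries without Xist (replicates 3 and 6). On the scaled values its difference was 0.08 (limma adjusted p = 0.795) with all libraries, and 0.58 (limma adjusted p = 0.0207) with the 3 Xist libraries left out, which leaves 2 cKO libraries. Those 3 include cKO replicate 1, and without replicate 1 alone the Incenp difference was 0.24 (limma adjusted p = 0.339). With Ddx3y, a gene of males, as a covariate it was 0.47 (limma adjusted p = 0.0439).

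The 3 spindle genes were also higher as deposited, against 76.5% of all tested genes. Kif11, the motor that pushes spindle poles apart, had 4.44 to 8.60 TPM in cKO and 4.28 to 5.71 TPM in control. Tpx2, a spindle assembly factor that activates Aurora A, had 5.51 to 15.03 TPM in cKO and 4.61 to 6.76 TPM in control, and Nusap1, which bundles spindle microtubules, 4.66 to 8.36 TPM in cKO and 3.78 to 4.79 TPM in control. Their differences in scaled TPM were -0.15, 0.08 and -0.04, none called. Without the 3 Xist libraries, which leaves 2 cKO libraries, Tpx2 was at 0.44 on that scale (limma adjusted p = 0.0270). Those 3 include cKO replicate 1, and without replicate 1 alone Tpx2 was at 0.275 (limma adjusted p = 0.0898).

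Of the 4 kinetochore genes 1, Ndc80, a microtubule-binding protein of the outer kinetochore, was called higher as deposited (log2 difference 0.57 ± 0.18, SE, limma adjusted p = 0.00965). Cenpf, a large kinetochore protein, had 1.957, 3.47, 2.66, 8.34 and 2.82 TPM in cKO replicates 1, 3, 5, 6 and 7, against 1.69 to 2.82 TPM in control, with 1 library (replicate 6) far above the rest. Cenpe, a kinetochore motor, had 1.71 to 4.82 TPM in cKO and 1.49 to 2.91 TPM in control. Neither was called.

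Cenpa was the one member lower in cKO hearts relative to the median gene. It encodes the histone H3 variant that marks centromeres and lies at chr5:30666777-30674830 on the plus strand. As deposited it had 23.2, 38.7, 34.2, 41.3 and 38.0 TPM in cKO replicates 1, 3, 5, 6 and 7, against 33.7, 43.8, 39.0, 38.1 and 36.6 TPM in control replicates 4, 6, 8, 9 and 13. Those ranges overlapped, and the log2 difference was -0.14 ± 0.14 (SE, limma adjusted p = 0.363), while genes in general were shifted by 0.63. Scaled, it had 16.8, 29.5, 25.6, 34.6 and 30.3 in cKO, against 47.3, 52.2, 46.3, 48.5 and 52.5 in control. Every cKO library lay below every control library, with a log2 difference of -0.86 ± 0.15 (SE, 95% interval -1.20 to -0.53, limma adjusted p = 0.000841). Without cKO replicate 1 it was -0.70 (limma adjusted p = 0.00011), so it was called lower without that library too.

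A ratio within a library is free of the scale. The ratio of Cenpa to Cdk1 in TPM, the 2 members with the highest mean TPM, was 0.874, 0.735, 0.780, 0.866 and 0.833 in cKO replicates 1, 3, 5, 6 and 7, against 1.25, 1.32, 1.15, 1.53 and 1.42 in control replicates 4, 6, 8, 9 and 13. Every cKO library lay below every control library, and cKO replicate 1 had a ratio like that of the other cKO libraries. The mean ratio was 0.818 ± 0.0592 over the cKO libraries and 1.33 ± 0.147 over the control libraries (SD, n = 5 each), a difference of -0.515 (two-sided exact permutation p = 0.00794, the smallest possible). The ratio shows that the pair changed unequally and does not say which of them changed. It uses the Cenpa values described above, the lowest difference of the members on both scales, and is not separate support for them.

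**Figure D3:**
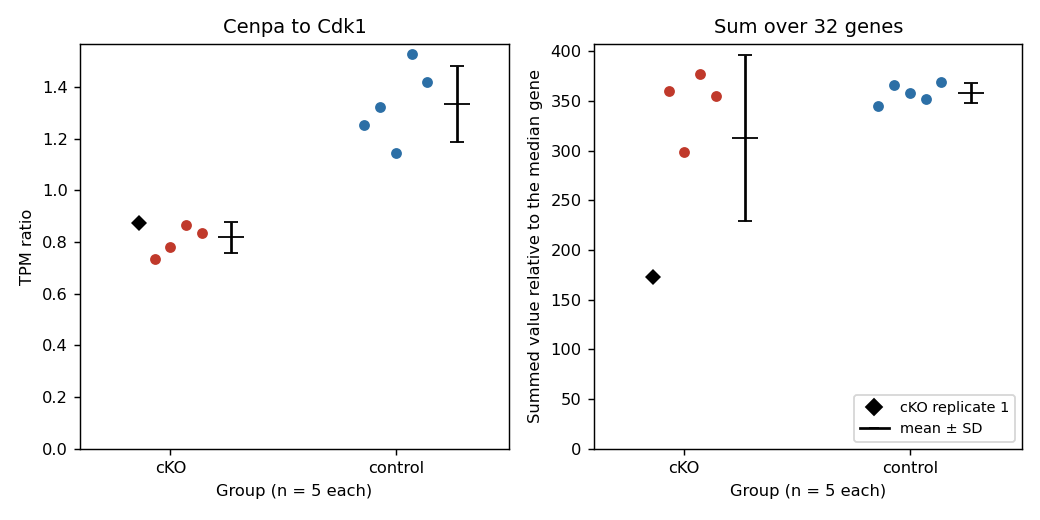
Left, TPM ratio of Cenpa to Cdk1 in each library, with mean and SD: the 5 cKO values (0.735 to 0.874) lie below the 5 control values (1.15 to 1.53). Right, summed level of the 32 genes relative to the median gene: cKO replicate 1 (black diamond) lies at 173, the other 4 cKO libraries at 299 to 377 and the control libraries at 344.5 to 369.

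Cytokinesis and midbody genes other than Kif23 had log2 differences in the range of the rest of the set. Kif23 had the highest estimate on both scales (0.80 ± 0.21 and 0.11 ± 0.22, SE), close to Incenp (0.74 and 0.08). As deposited limma called 6 of 8 tested higher with a median of 0.50, and 18 of the other 23 genes with a median of 0.54. Over all genes the values were 76.5% and 0.63. Once scaled, 0 of 8 were called, with a median of -0.15 (-0.12 in the other 23). At an unadjusted p under 0.05, 1 of the 8 (Cit) was lower, against 3255 of the 13282 tested genes. The 9 genes made up 20.5 to 22.7% of the summed TPM of the 32 in cKO and 19.0 to 22.9% in control, with overlapping ranges.

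Kif23 and Racgap1 encode centralspindlin. Kif23 had 13.4, 21.4, 20.3, 17.0 and 21.4 TPM in cKO, against 6.23, 12.4, 7.48, 13.9 and 12.9 TPM in control, with control replicates 4 and 8 lower than the other 3. Its deposited difference of 0.80 ± 0.21 (SE, limma adjusted p = 0.00291) was the highest of the 31, and relative to the median gene it was 0.11 (limma adjusted p = 0.712). Racgap1 had 7.79, 19.0, 14.2, 16.8 and 20.2 TPM in cKO, against 9.25, 9.94, 10.1, 10.4 and 8.74 TPM in control, so that cKO replicate 1 lay below all 5 controls and the other 4 above them. Ect2, the RhoA activator that centralspindlin recruits, had 3.76 to 6.66 TPM in cKO and 2.59 to 4.61 TPM in control.

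Anln, a scaffold of the contractile ring, had 5.27 to 11.7 TPM in cKO and 5.15 to 8.25 TPM in control, and Prc1, which bundles the midzone microtubules, 14.4 to 30.9 TPM in cKO and 12.8 to 20.0 TPM in control. Kif20a, a midzone kinesin, had 4.503 to 9.34 TPM in cKO and 4.38 to 5.81 TPM in control. The 3 genes were called higher as deposited (0.47, 0.49 and 0.51) and none relative to the median gene. Exons of Kif20a share 29.3% of their bases with Cdc23 and those of Prc1 11.1% with Rccd1, again on opposite strands. Kif14, a kinesin that brings citron kinase to the midzone, had 0.453, 0.950, 0.958, 0.940 and 0.684 TPM in cKO, against 0.392, 0.434, 0.480, 0.666 and 0.544 TPM in control.

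Cep55, the midbody protein upstream of ESCRT (chr19:38055011-38074423, plus strand), was not called on either scale. It had 2.57, 5.81, 5.48, 5.21 and 6.47 TPM in cKO replicates 1, 3, 5, 6 and 7, against 3.11, 4.90, 3.31, 4.03 and 3.64 TPM in control replicates 4, 6, 8, 9 and 13, a log2 difference of 0.32 ± 0.18 (SE, limma adjusted p = 0.129). Replicate 1 of cKO was below every control and the other 4 above every control. Without that library the difference was 0.50 (limma adjusted p = 0.0029) as deposited, and -0.09 (limma adjusted p = 0.561) relative to the median gene.

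Cit, which encodes the citron kinase that stabilises the midbody, was the cytokinesis gene with the lowest difference (chr5:115845278-116008947, plus strand). It had 1.77, 1.95, 2.10, 3.01 and 1.36 TPM in cKO, against 2.01, 3.05, 1.83, 1.42 and 1.54 TPM in control, and the groups overlapped. Its difference was 0.04 ± 0.17 as deposited and -0.45 ± 0.17 relative to the median gene (SE, limma adjusted p = 0.848 and 0.0504), so on the second scale it lay just outside the threshold. It passed there without cKO replicate 6 (-0.56, limma adjusted p = 0.0128) and without control replicate 9 (-0.53, limma adjusted p = 0.0329). Without cKO replicate 6, Cenpf (-0.43, limma adjusted p = 0.0276) and Bub1 (-0.39, limma adjusted p = 0.0488) passed as well, which brought the number called lower to 4. Cit was also the one member that was not lowest in cKO replicate 1.

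One animal, cKO replicate 1, had low levels of nearly the whole set. It held the lowest cKO value of 31 of the 32 genes on both scales, whereas it was lowest for 13.8% of all tested genes as deposited and for 24.6% relative to the median gene. In TPM these 31 genes were at 44.4% (Racgap1) to 69.1% (Aurkb) of the mean of the other 4 cKO libraries, with a median of 52.9%, and Cit was at 84.2%. As deposited this library lay below all 5 controls for 7 of the 32 genes, against 6.05% of tested genes. Once scaled, it did so for 31 of 32, against 31.6% of tested genes, Kif23 being the exception. The other 4 cKO libraries all lay above all 5 controls for 27 of 32 genes as deposited, against 64.4% of tested genes, and for 0 of 32 relative to the median gene, against 16.8%. Replicate 1 was singled out by its low values of these same genes. Leaving it out therefore moves the members upward by choice, here and in each result given without it.

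**Figure D4:**
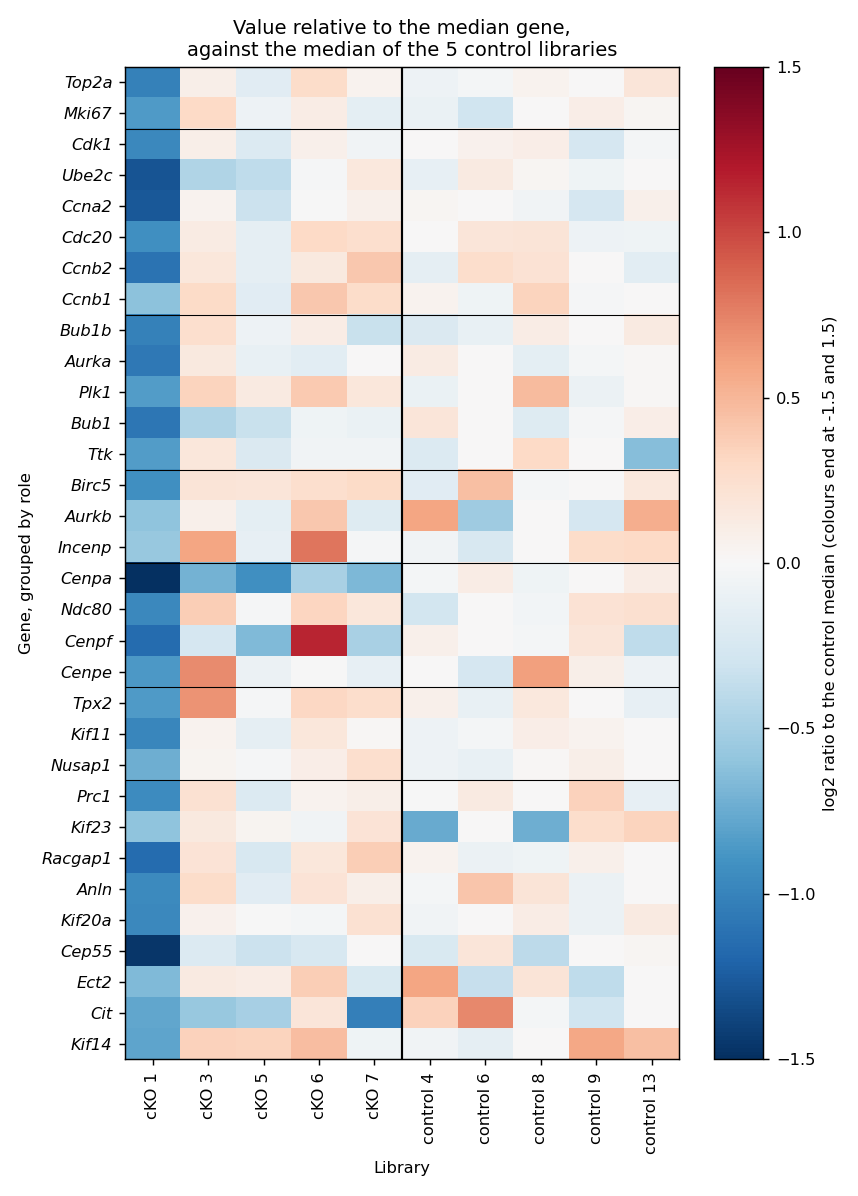
Level of each member in each library relative to the median gene, as log2 ratio to the median of the 5 control libraries, with cKO libraries left of control libraries and genes grouped by role. The column of cKO replicate 1 is blue throughout, with a median of 51.8% of the control median, and Cenpa is blue in all 5 cKO columns.

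Expressed against the control median on the scaled values, the median of the 32 genes was 51.8%, 111%, 90.9%, 112% and 102% in cKO replicates 1, 3, 5, 6 and 7, against 97.2% to 101% in the 5 control libraries. The summed level of the 32 was 173, 360.1, 299, 377 and 355 scaled TPM in cKO, against 344.5, 366, 358, 352 and 369 scaled TPM in control. In TPM the sums were 239, 472, 400.0, 451 and 445 in cKO, against 245, 308, 302, 276 and 257 in control. The members accordingly varied more among cKO animals, with a median coefficient of variation of 25.6% in cKO and 16.3% in control, while tested genes as a whole had 14.2% in cKO and 16.3% in control. Leaving out replicate 1, a library singled out by its low member values, was bound to move the members upward. Without it, limma called 28 of 31 members higher as deposited, and 0 lower, against 74.7% and 3.17% of all genes. The members' median was 0.66, and 0 were lower at an unadjusted p under 0.05, against 451 of the 13282 tested genes. Relative to the median gene, limma then called 0 higher and 1 lower, against 19.2% and 19.0% of all genes. The median there was 0.04, with 22 of 31 positive. At an unadjusted p under 0.05, 1 was higher and 2 lower there, against 3130 and 3049 of the 13282 tested genes.

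The same library differed in other respects. It had the highest size factor (1.38), the highest macrophage marker sum as deposited (549 TPM, against 361 or more in the other cKO libraries) and the lowest heart muscle marker sum of the cKO libraries (31240 TPM). It carried Xist, as did replicates 5 and 7, in which the median of the 32 genes was at 90.9% and 102% of the control median. Scaled, its macrophage sum was 398, inside the 296 to 424 of the other cKO libraries. Its Cdkn1a level was the highest of all on both scales. Its Chmp4b level was 40.0 TPM, against 36.3 to 39.1 TPM in the other cKO libraries, and 29.0 scaled TPM, inside their 27.7 to 31.3. The part of these differences in the low member levels was not tested.

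Among the regulators of cell cycle entry and of G2, most genes were called higher as deposited, near the share of genes in general, and few were called relative to the median gene. Of 26 genes, all tested, 22 were higher as deposited, against 76.5% of all tested genes, and relative to the median gene 2 were higher and 2 lower, against 20.8% of all tested genes in each direction. Cdkn1a, the p53-induced inhibitor p21, had 126.9, 97.1, 96.7, 70.1 and 88.7 TPM in cKO replicates 1, 3, 5, 6 and 7, against 19.6, 23.1, 26.0, 24.8 and 26.4 TPM in control. Every cKO library lay above every control library, for a log2 difference of 1.94 ± 0.14 as deposited and 1.21 ± 0.12 relative to the median gene (SE, limma adjusted p = 1.89e-07 and 9.97e-06). Lin37, a subunit of MuvB, had 21.7 to 34.8 TPM in cKO and 5.42 to 15.7 TPM in control, the highest control being replicate 6. It was higher by 1.06 on the scaled values (limma adjusted p = 0.00283). The groups overlapped there, at 16.6 to 25.2 scaled TPM in cKO and 6.43 to 18.6 scaled TPM in control. Ccnd2, a cyclin of G1, had 26.9 to 29.2 TPM in cKO and 25.2 to 28.1 TPM in control, and E2f1, an activator of S phase genes, 2.71 to 4.10 TPM in cKO and 2.71 to 3.65 TPM in control. In scaled TPM they were lower, at -0.67 and -0.40 on the log2 scale (limma adjusted p = 1.94e-05 and 0.0124).

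Further genes of the same processes are to be read against all tested genes, of which 76.5% were higher as deposited and, relative to the median gene, 20.8% were higher and 20.8% lower. Of 32 other spindle, kinetochore and checkpoint genes, 21 were higher as deposited, and 1 was higher and 2 lower relative to the median gene. Without cKO replicate 1 these counts were 29, and 4 higher and 1 lower. That library held the lowest cKO TPM of 27 of the 32, against 13.8% of all tested genes. Zwint, a kinetochore scaffold gene, was the one called higher on the scaled values with all libraries, at 79.8 to 102.3 TPM in cKO and 23.7 to 33.2 TPM in control (a scaled log2 difference of 1.00, limma adjusted p = 7.54e-07), and it was not low in cKO replicate 1. Pttg1 (securin) and Spc25 (a subunit of the Ndc80 complex) were lower on that scale, by -0.50 and -0.55 (limma adjusted p = 0.00296 and 0.0470), and Spc25 lost its call without cKO replicate 1 (-0.35, limma adjusted p = 0.0538). Of 16 condensin and chromosome genes, 9 were higher as deposited. On the second scale 3 were lower (the condensin genes Ncapd2 and Ncapd3 at -0.67 and -0.44, and the centromere gene Cenpk at -0.71), and all 16 differences were negative. Without cKO replicate 1, 12 of the 16 were higher as deposited, 12 scaled differences were negative and 4 positive, and Cenpk lost its call (limma adjusted p = 0.0942).

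Genes of the contractile ring and of the abscission machinery also serve cells that do not divide. Of 19 rows for contractile ring, septin and RhoA genes, 17 were higher as deposited, against 76.5% of all tested genes, and 7 were higher and 3 lower relative to the median gene, against 20.8% in each direction. cKO replicate 1 held the lowest cKO TPM in 2 of the 19, against 13.8% of all tested genes. Septin9 had 52.4 to 64.9 TPM in cKO and 15.3 to 20.4 TPM in control and was higher by 0.90 on the scaled values (limma adjusted p = 7.31e-07), and Septin11 by 0.57 (limma adjusted p = 2.02e-05). Myh10, the non-muscle myosin IIB heavy chain, and Myl12b, a myosin light chain that shares 26.7% of its exon bases with another gene entry of the same name, were lower on that scale, at -0.51 and -0.45 (limma adjusted p = 0.000167 and 0.00574).

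Of 17 abscission genes shared with ESCRT, 15 were higher and 1, Chmp4b, lower as deposited, against 76.5% and 3.46% of all tested genes. Relative to the median gene 6 were higher and 3 lower, against 20.8% in each direction, and without cKO replicate 1 the numbers were 4 and 3. Chmp4b was at -0.29 as deposited (limma adjusted p = 0.0340), a call that was lost when any of cKO replicates 3, 5, 6 and 7 or control replicates 6, 8 and 9 was left out (limma adjusted p from 0.0509 to 0.0816). It was also lost with no filter (0.0658), with the Ddx3y covariate (0.0673) and without the Xist libraries (0.107). On the scaled values Chmp4b was lower, at -1.01 (limma adjusted p = 1.87e-06), and stayed called in each of these alternatives (limma adjusted p at most 0.000564). Pdcd6ip (ALIX), which links CEP55 to CHMP4 proteins in human cells, had 42.4 to 58.4 TPM in cKO and 17.3 to 23.9 TPM in control and was higher by 0.49 on that scale (limma adjusted p = 0.00147). Chmp1b, another ESCRT-III gene, whose exons share 24.0% of their bases with an antisense transcript, was higher by 0.43 (limma adjusted p = 0.00149). Chmp4c, a paralogue of Chmp4b that delays abscission in human cells, had 2.91 to 4.27 TPM in cKO and 2.78 to 3.67 TPM in control, and was lower, at -0.49 on the scaled values (limma adjusted p = 0.000987).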

How the data were processed

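Total RNA of 10 hearts, 5 cKO and 5 control, was sequenced from libraries of the V10 kit of VAHTS, as the labels' protocols state. The authors deposited a table of TPM per gene, a unit corrected for gene length that sums to 1000000 in each library, so the read depth behind a value is unknown and no counting interval is given. Per the submitters' processing notes, STAR 2.7.1, HTSeq 0.11.2, DESeq2 1.22.2, Picard 1.96, Trimmomatic 0.32, FastQC 0.11.7 and bcl2fastq were used on build mm10, in roles and an order that the notes do not state. The strand setting, the gene lengths and the annotation release are not given in the sources used here.

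Values were tested as log2(TPM + 1), which understates changes of low genes, with limma 3.58.1 in R 4.3.3 (two-sided, moderated variance with trend, group as the single term) on genes that reached 1 TPM in 5 or more of the 10 libraries. Calls were made where the p adjusted by Benjamini-Hochberg over all 13282 tested genes was under 0.05. Median-of-ratios size factors came from 16393 genes above 0 in every library. Single values had an exact permutation test over 252 splits. The fit was tested on simulated data. Groups and replicate numbers are from the titles. The limma p-values set the group difference against the spread between animals and do not separate loss of Chmp4b from tamoxifen or sex. No 2 libraries held identical values.

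The members, the 5 further gene lists, the 9 marker lists and the tests were chosen with earlier results of these data known. Values per library are given for members called relative to the median gene, for Cit and Cep55 and for the 2 members highest in mean TPM, and other members' values were added after they were seen. From each further list at most 4 called genes with the largest difference relative to the median gene are named, with Chmp4b and Cdkn1a. H2afz was matched by gene ID, and Septin2 has 2 rows. Coordinates and exon overlaps are from GENCODE M21 on GRCm38, promoter sequences from RefSeq on GRCm38.p6. The remaining marker lists showed the following relative to the median gene by limma: smooth muscle and pericyte 2 higher and 2 lower of 6 tested, epicardium 1 lower of 1 (Wt1), and lymphocyte 1 tested and erythroid 5 tested with no gene called or at an unadjusted p under 0.05. The 4 tested sex-linked genes, Ddx3y, Uty, Kdm5d and Eif2s3y, were lower. Xist, also on that list, reached 1 TPM in cKO replicates 1, 5 and 7 alone and was not tested. Alternatives varied the pseudocount, the filter, the variance model, library weights, scaling, a Ddx3y covariate and the libraries used.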

Additional observations from a re-analysis of the deposited data

Results flagged for a closer look

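Among 64 groups tested (32 genes in 2 groups of 5 libraries), 5 held a library whose gap to its nearest neighbour, divided by the range of the group, was above Dixon's limit of 0.71, and chance flags about 1 in 20 groups. cKO replicate 1 was the lowest library by this measure for Birc5 (0.8717), Kif11 (0.785) and Plk1 (0.7349) in TPM. cKO replicate 6 was the highest for Cenpf (0.7626). Control replicate 8 was the highest for Cenpe (0.722).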

How the results depend on the processing

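No paired analysis was possible because the groups share a single replicate number (6). As deposited, 24 members were called with every pseudocount, variance model and library weight tried, 26 with the Ddx3y covariate, 29 without the Xist libraries, 16 when no filter was used, and 17 to 28 without any 1 library, all of them higher. Of all 13282 tested genes, 10160 were higher in the main setting, 9405 with the Ddx3y covariate and 8942 without the Xist libraries. The number was 9763 to 10171 without any 1 library, and 10914 of 28821 genes when no filter was used. Relative to the median gene the count of 1 (Cenpa) became 2 with a pseudocount of 0.1 or 0.5, without the variance trend and with robust variances (Cit joining, adjusted p from 0.0460 to 0.0492), 2 with the Ddx3y covariate (Incenp joining), 3 without the Xist libraries (Incenp and Tpx2 joining), and 1 to 4 without any 1 library. The cause was not tested. Cenpa was called lower in each of these alternatives on that scale. Over all genes, 10230 to 10588 were called as deposited and 5030 to 5468 relative to the median gene without any 1 library, and 3477 on the second scale without the Xist libraries, against 5529, which leaves 2 cKO libraries. With TPM over non-mitochondrial genes 6066 genes were higher and 1388 lower, against 2763 and 2766. The Cenpa to Cdk1 difference was -0.562 to -0.466, and the size factor difference 0.498 to 0.544, without any 1 library. Among single members, 37 repeats as deposited lost a call, 12 gained one and 540 did neither, and relative to the median gene 11 gained one and 640 did not change. No member's called difference changed sign. TPM keeps no depth, so low members such as Kif14, Cit and Ttk have an unknown counting error.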
